A study of Rattus norvegicus with 8 samples.

Results

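The genes described here are the calcium/calmodulin-dependent protein kinases II (Camk2a, Camk2b, Camk2d and Camk2g) and IV (Camk4), the calcineurin catalytic subunit Ppp3ca, the calmodulin-binding protein neurogranin (Nrgn) and the 3 Homer scaffold genes. They were chosen by name: every non-control probe whose gene name in the scanner files was 1 of the 10 was taken, which gave 16 of 41012 probes and 34 of 43379 non-control spots on each array. Of the 10 genes, 5 had 1 probe, 4 had 2 and Camk2b had 3. Each array carried RNA of the medial thalamus of 1 male Sprague-Dawley rat, and the study trained 4 such rats, while conscious, with tracheal occlusions and kept 4 surgical controls without them. Per the labels, sessions were held on 10 consecutive days, an occlusion lasted 3 to 10 breaths and was followed by about 30 s of recovery, and the rats were killed within 10 min after the last session by an overdose of anaesthetic. No age is given, and both groups share the surgery, the daily sessions and the anaesthetic.

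As background, a rise of calcium in a neuron loads calmodulin, and calmodulin then switches on kinases and a phosphatase that act against each other at synapses. CaMKII is a ring of subunits made from the alpha, beta, gamma and delta genes and is abundant at forebrain synapses, while CaMKIV sits largely in the nucleus and phosphorylates the transcription factor CREB. Calcineurin removes phosphate groups when calmodulin and its regulatory subunit bind calcium, neurogranin holds calmodulin while calcium is low, and Homer proteins tie group I metabotropic glutamate receptors to Shank scaffolds and to calcium release channels. Homer1 also makes a short, activity-induced form, Homer 1a, which lacks the coiled coil and so cannot crosslink its partners.

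Each probe is a 60-base oligonucleotide that reads 1 place in a transcript, so the probes of a gene can see different splice forms. Each probe printed whole has a forward frame without a stop codon. This alone does not show coding sequence, since the Camk2a probe A_44_P296812, described as untranslated, has 2 such frames. For the others the first 30 bases are shown, because the files do not say how much of them is coding. Positions are those of the files, on rat assembly rn3. The Camk2a probe A_44_P101625 covers part of the kinase domain and spans 13866 bases of genome (chr18:56976633-56990498, plus strand), so it crosses at least 1 intron. The Camk2b probe A_44_P452145 (chr14:86664377-86664592, minus strand) spans 216 bases, the Camk2d probe A_44_P339708 (chr2:224043690-224051015, plus strand) 7326 bases and the Camk2g probe A_44_P491824 (chr15:3783656-3785221, plus strand) 1566 bases. These 4 are shown because their span crosses an intron and the files assign each to a different kinase gene. Whether a probe also matches a related CaMKII transcript was not checked.
Camk2a A_44_P101625: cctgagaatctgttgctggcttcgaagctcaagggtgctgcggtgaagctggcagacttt
Camk2b A_44_P452145: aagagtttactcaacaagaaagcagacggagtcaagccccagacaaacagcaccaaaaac
Camk2d A_44_P339708: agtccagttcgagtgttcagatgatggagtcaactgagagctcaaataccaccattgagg
Camk2g A_44_P491824: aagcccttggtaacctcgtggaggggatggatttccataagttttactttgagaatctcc

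The next 5 are shown because they carry the differences described for Camk4, Nrgn and the Homer genes. The Camk4 probe lies at chr18:25652161-25652220 (plus strand), the Nrgn probe at chr8:38800017-38800076 (minus strand), the Homer2 probe at chr1:137907172-137907231 (minus strand) and the Homer3 probe at chr16:19624628-19624687 (minus strand). The files give no position for the Homer1 probes. The Homer1 probe A_44_P380835 is described there as the cDNA first cloned as Homer, which is the short form Homer 1a. The second, A_44_P148865, is described as the Homer1 reference transcript. The name Homer 1a probe used below rests on that description alone. Whether this probe reads only the short form, or the second only the long forms, was not checked.
Camk4 A_44_P388650, first 30 bases: caggctggagacagatgaccaggaaatgaa
Nrgn A_42_P687133, first 30 bases: ttcgtcgtggcgtagccaagtccgtgccct
Homer1 A_44_P380835, first 30 bases: aacagaagctcattgacaaactaaagtgac
Homer2 A_42_P640641: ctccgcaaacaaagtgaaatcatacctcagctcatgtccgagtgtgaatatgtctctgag
Homer3 A_44_P463822: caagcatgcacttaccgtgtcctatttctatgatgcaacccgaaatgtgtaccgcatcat

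Values below are log2 processed intensities minus the 75th percentile of that array's spots, and differences are occlusion minus control over 4 and 4 arrays, 1 array per rat. The share of spots flagged as well above background ran from 63.4% to 69.8% per array, and the saturated share from 1.20% to 1.67%. No spot of the 10 genes was flagged as saturated (0 of 34 per array). Each of the 2 slides held 2 arrays of either group, and the first principal component (38.0% of the variance) separated the slides. Control 3 stood apart on the second (19.2%), with a score of 58.6 against -35.5 to 24.7 for the other arrays, so each result is also given without it where that matters. Over all 27161 probes that passed the filter on dim signal, limma called 0 (0%) at an adjusted p under 0.05, with a smallest adjusted p of 0.413, while 2933 (10.8%) had an unadjusted p under 0.05 and the groups did not overlap for 1732 (6.38%).

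Of the 16 probes, 15 passed the filter and had a value on every array, and each of the 10 genes had at least 1 of them. None of the 15 passed the test (0 against 0% of all probes, smallest adjusted p 0.413). An unadjusted p under 0.05 was found for 3 of 15, where 10.8% of all probes had one. Camk4 and 1 Camk2b probe were the 2 of 15 on the higher side (7.05% of all probes) and Nrgn the 1 of 15 on the lower side (3.74%). The groups did not overlap for 2 of 15, Camk4 and that Camk2b probe, both higher on occlusion arrays (4.13% of all probes), and for 0 of 15 on the lower side (2.25%). Of the 15, 9 were higher and 6 lower on occlusion arrays, with a median difference of 0.14, while 56.6% of all probes were higher and 43.4% lower, with a median of 0.04. Without control 3 the count at an unadjusted p under 0.05 was 5 of 15, made up of both Camk2a probes, Camk4, Nrgn and Homer2 but no longer Camk2b, and 2049 of all 27161 probes had one in the same fit. In RNA from whole tissue, fewer cells of a type and less RNA per cell cannot be told apart.

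**Figure D1:**
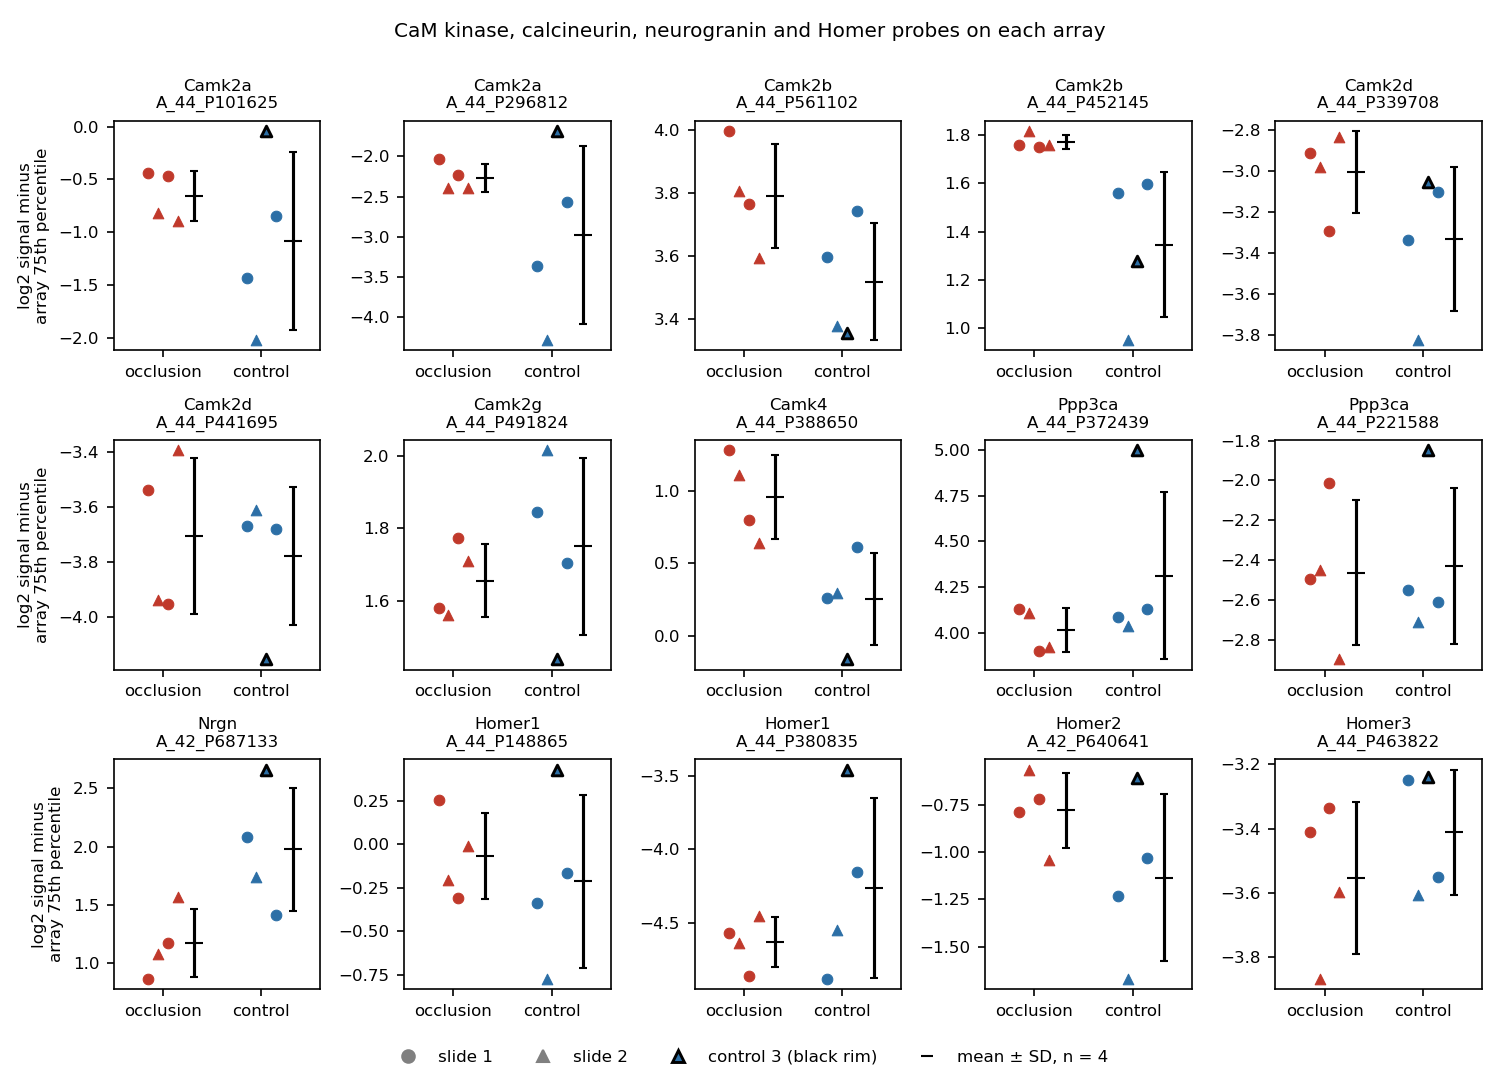
Level of the 15 kept probes on each array (y axis, log2 processed intensity minus the 75th percentile of the array), with occlusion arrays left of control arrays, circles for slide 1, triangles for slide 2, and the mean ± SD of 4 arrays beside each group. The Camk4 points and those of Camk2b A_44_P452145 do not overlap between the groups, and control 3 (black rim) is the highest of 8 arrays in 8 of the 15 panels.

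Camk4, the nuclear CaM kinase, had the smallest p of the 15 probes. It read 1.28, 1.11, 0.80 and 0.64 on occlusion arrays 1 to 4, against 0.26, 0.30, -0.17 and 0.61 on control arrays 1 to 4. Every occlusion array lay above every control array, but the lowest occlusion array and the highest control array were close. The means were 0.96 ± 0.29 (SD, n = 4) and 0.25 ± 0.32, a difference of 0.71 (SE 0.20), or 1.63-fold, with an adjusted p of 0.413 in limma. Within slide 1 the difference was 0.60 and within slide 2 it was 0.81. Leaving out 1 array at a time gave 0.57 to 0.83, the lowest without control 3.

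Camk2b, the beta subunit that binds actin, was read by 2 bright probes and by a dim one, A_44_P318539, on which all 8 arrays failed the background flag, so that it gives only a bound. On the spliced probe A_44_P452145 the occlusion arrays read 1.76, 1.82, 1.75 and 1.76, against 1.56, 0.95, 1.28 and 1.596 on the control arrays. The 4 occlusion arrays were almost level (SD 0.03) and lay above a wider control group (SD 0.30). The difference was 0.43 (SE 0.15), 1.34-fold, with an adjusted p of 0.418 in limma, and it was 0.18 within slide 1 and 0.67 within slide 2. Without control 2, the lowest array, it was 0.29. The second probe, A_44_P561102 (chr14:86652309-86652368, minus strand), read 3.996, 3.80, 3.76 and 3.59 on occlusion arrays, against 3.59, 3.38, 3.36 and 3.74 on control arrays. Its groups overlapped, and its difference was 0.27 (SE 0.14, adjusted p = 0.499), with 0.21 and 0.33 within the slides. With the slide as a block its unadjusted p came under 0.05, with an adjusted p of 0.338.

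Camk2a, the alpha subunit and the most abundant one in forebrain excitatory neurons, varied mostly among the controls. Probe A_44_P101625 read -0.44, -0.82, -0.47 and -0.90 on occlusion arrays, against -1.43, -2.02, -0.04 and -0.84 on control arrays. Probe A_44_P296812 (chr18:57023052-57023111, plus strand), described in the files as lying in the 3′ untranslated region, read -2.03, -2.40, -2.23 and -2.39 on occlusion arrays, against -3.36, -4.28, -1.68 and -2.57 on control arrays. On both probes the occlusion arrays lay inside the range of the controls, with control 3 the highest and control 2 the lowest of all 8 arrays. The SD between arrays was 0.24 on occlusion and 0.84 on control arrays for the first probe, and 0.17 and 1.11 for the second. The differences were 0.43 (SE 0.38, adjusted p = 0.707) and 0.71 (SE 0.48, adjusted p = 0.613). Without control 3 they were 0.77 (SE 0.28) and 1.14 (SE 0.36), each with an adjusted p of 0.654 in limma, and without control 2 they were 0.12 and 0.28, so that 2 single control arrays set their size. Within slide 1 the probes gave 0.68 and 0.84, and within slide 2 they gave 0.17 and 0.59.

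Camk2d and Camk2g encode the delta and gamma subunits, which are also found outside the nervous system. The spliced Camk2d probe A_44_P339708 ran from -3.29 to -2.84 on occlusion and from -3.82 to -3.06 on control arrays, a difference of 0.32 (SE 0.19, adjusted p = 0.559), and 0.16 without control 2. The other Camk2d probe, A_44_P441695 (chr2:224097630-224097689, plus strand), ran from -3.95 to -3.40 on occlusion and from -4.16 to -3.61 on control arrays, a difference of 0.07 (SE 0.18) that was -0.0525 without control 3 and 0.019 with normexp. The Camk2g probe ran from 1.56 to 1.77 on occlusion and from 1.44 to 2.02 on control arrays, a difference of -0.10 (SE 0.14, adjusted p = 0.842). All 3 pairs of groups overlapped, and the differences were under 2 SEs. Without control 2 the Camk2g difference was -0.0067, and without control 3 it was -0.20.

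Neurogranin, the calmodulin reservoir of dendritic spines, was the member with the largest negative difference. Nrgn read 0.87, 1.08, 1.17 and 1.56 on occlusion arrays, against 2.08, 1.74, 2.66 and 1.42 on control arrays. The groups overlapped only in that occlusion 4 read above control 4, which was the lowest control. The means were 1.17 ± 0.29 (SD, n = 4) and 1.98 ± 0.53, a difference of -0.80 (SE 0.27), or a ratio of 0.573, with an adjusted p of 0.413 in limma. It was -0.73 within slide 1 and -0.88 within slide 2, and leaving out 1 array at a time gave -0.99 to -0.58, the smallest size being without control 3.

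Ppp3ca, the alpha catalytic subunit of calcineurin, had a bright and a dim probe. The bright one, A_44_P372439 (chr2:234395772-234395831, plus strand), read 4.13, 4.11, 3.90 and 3.92 on occlusion arrays, against 4.08, 4.04, 4.998 and 4.13 on control arrays. Of these, 7 arrays lay close together and control 3 lay far above them. On control 3 the unscaled signal was 58374, above the lowest signal at which any spot was flagged as saturated on these arrays (42897), although this spot carried no flag. The difference was -0.30 (SE 0.22, adjusted p = 0.641), and -0.07 (SE 0.12) without control 3. The dim probe, A_44_P221588 (chr2:234116813-234116872, plus strand), is described in the files as an unknown cDNA clone and gave -0.03 (SE 0.24), with 0.33 within slide 1, -0.39 within slide 2 and 0.16 without control 3.

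The 2 Homer1 probes gave differences of opposite sign, and neither was larger than 2 SEs. The reference transcript probe A_44_P148865 read 0.26, -0.20, -0.31 and -0.01 on occlusion arrays, against -0.34, -0.77, 0.43 and -0.17 on control arrays, a difference of 0.14 (SE 0.25, adjusted p = 0.868). The Homer 1a probe A_44_P380835 read -4.57, -4.63, -4.86 and -4.45 on occlusion arrays, against -4.88, -4.55, -3.46 and -4.16 on control arrays, a difference of -0.37 (SE 0.28, adjusted p = 0.659). Control 3 was the highest array on both probes, and both were dim or intermediate with all 8 arrays well above background. Without control 3 the differences were 0.36 (SE 0.20) and -0.10 (SE 0.19), and without control 2 the first was -0.042. With normexp background correction the Homer 1a difference was -0.15. Whether the 2 probes differ in their difference was not tested.

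Homer2 and Homer3 encode long, crosslinking Homer proteins. The Homer2 probe read -0.79, -0.57, -0.72 and -1.04 on occlusion arrays, against -1.23, -1.67, -0.61 and -1.03 on control arrays, a difference of 0.36 (SE 0.22, adjusted p = 0.578). As for Camk2a, control 3 was the highest and control 2 the lowest of the controls, and the difference was 0.53 (SE 0.19, adjusted p = 0.654) without control 3 and 0.18 without control 2. The Homer3 probe ran from -3.87 to -3.34 on occlusion and from -3.61 to -3.24 on control arrays, a difference of -0.14 (SE 0.16, adjusted p = 0.769), with 0.026 within slide 1, -0.31 within slide 2 and -0.069 with normexp.

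**Figure D2:**
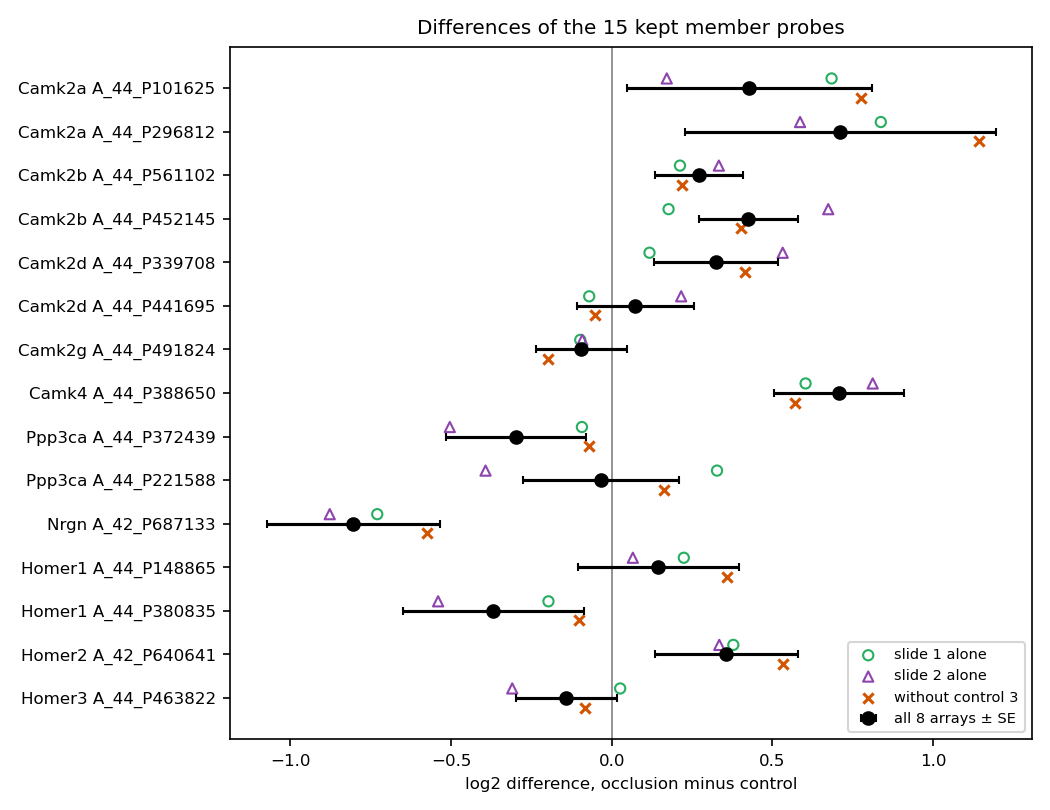
Log2 difference, occlusion minus control (x axis), for the 15 kept probes (y axis): black points with bars give all 8 arrays ± SE, open circles slide 1, open triangles slide 2, and crosses the fit without control 3. All kept probes except Camk2d A_44_P441695, Ppp3ca A_44_P221588 and Homer3 stay on the same side of 0 in all 4 fits. Among those that stay, Camk4 (0.71) and both Camk2b probes lie right of 0 and Nrgn (-0.80) left of it, and for Camk2a the cross lies further right (0.77 and 1.14).

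The pattern across arrays was shared by several of these genes. Control 3 was the highest of the 8 arrays for 8 of the 15 probes and the lowest for 4, where it was the highest for 17.6% and the lowest for 20.5% of all probes with 8 values. Control 2 was the lowest array for 6 of the 15, where it was the lowest for 14.6% of all probes. Control 3 had the highest level of Camk2a, Ppp3ca, Nrgn and Homer1 on each of their probes and of Homer3, and the lowest of Camk4, Camk2g and 1 probe each of Camk2b and Camk2d. Both arrays were on slide 2.

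**Figure D3:**
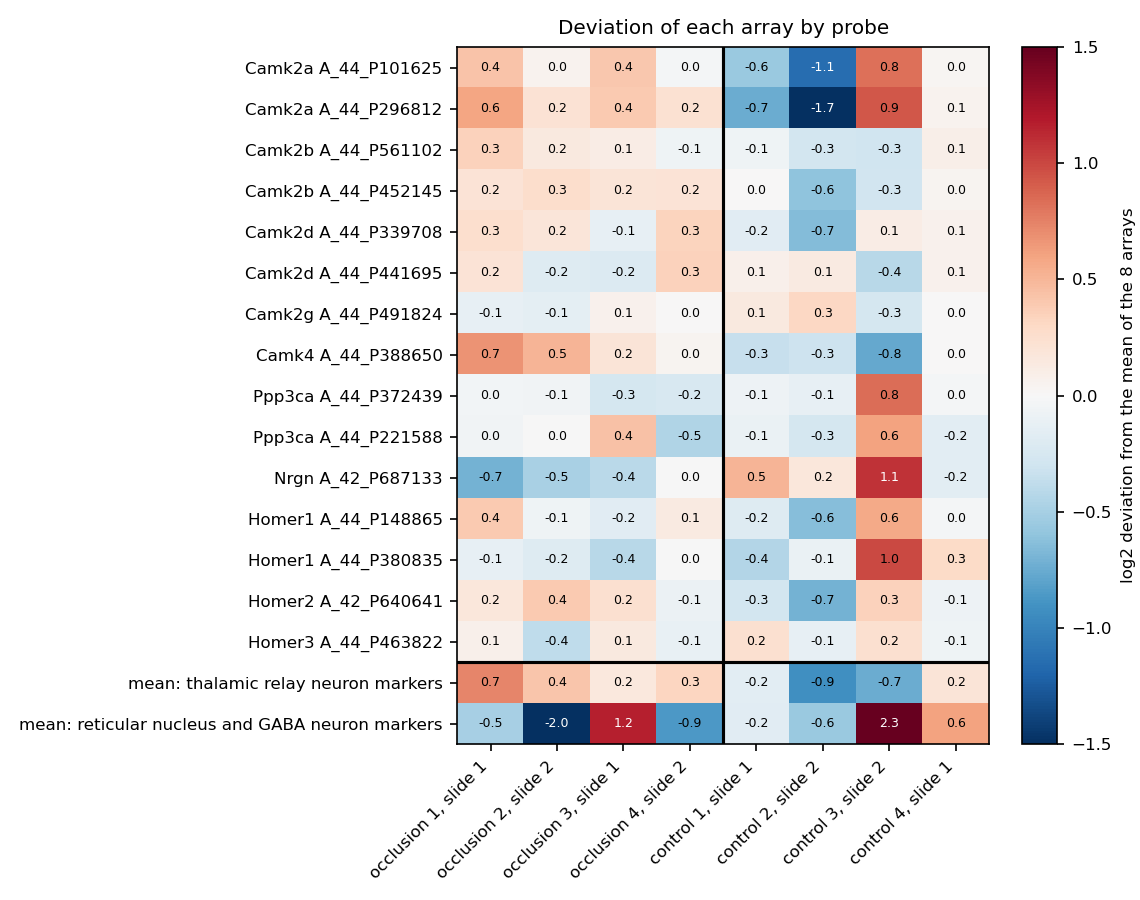
Deviation of each array (x axis, occlusion left of control) from the mean of the 8 arrays, in log2 units, for the 15 kept probes and for the array means of 2 marker lists (y axis), with the colour scale ending at -1.5 and 1.5 and the value printed in each cell. Control 3 is high for Camk2a, Ppp3ca, Nrgn and Homer1 and low for Camk4, and control 2 is low for Camk2a.

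Repeated spots show how far single spots of an array differ, while an array's value is the mean of its spots and so varies less. The Camk2a probe A_44_P296812 and the Homer1 probe A_44_P148865 were each spotted 10 times per array. For Camk2a the SD between spots of an array was 0.07 to 0.25, pooled 0.14, against an SD between arrays of 0.17 on occlusion and 1.11 on control arrays. For Homer1 the SD between spots was 0.04 to 0.07, pooled 0.060, against 0.25 on occlusion and 0.50 on control arrays. Every spot of control 2 read below every spot of the other arrays on both probes. The spots of control 3 lay above all others except some of occlusion 1.

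**Figure D4:**
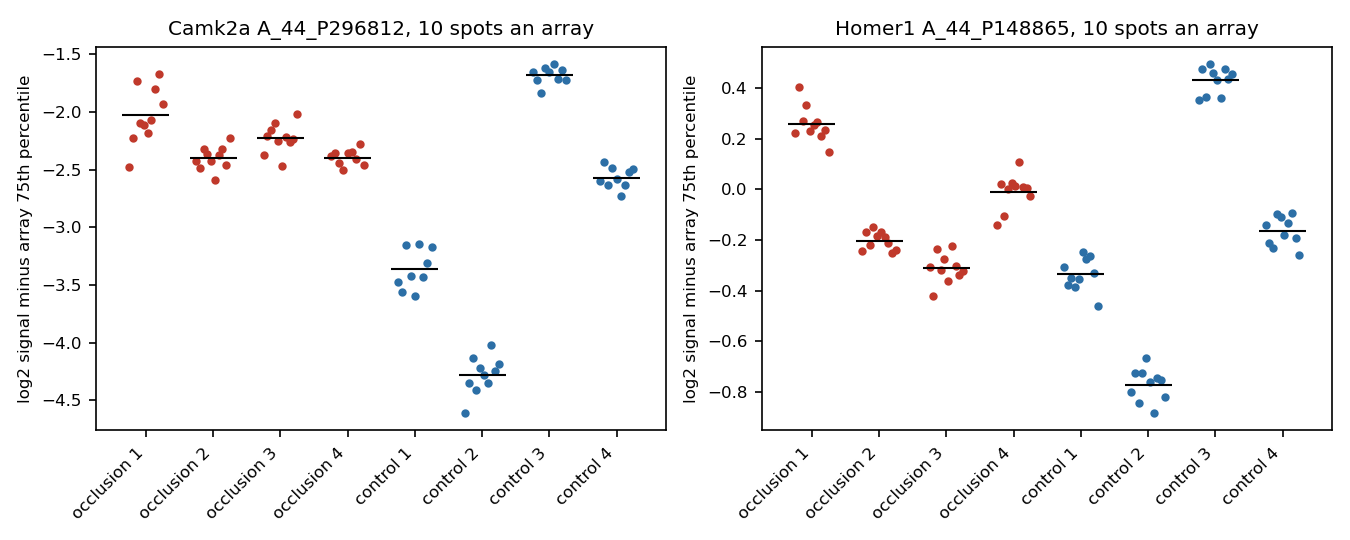
Each repeated spot of the Camk2a and Homer1 probes with 10 spots per array (points; y axis, log2 processed intensity minus the 75th percentile of the array) on the 4 occlusion and 4 control arrays, with a line at each array's mean. The spots of control 2 lie below, and those of control 3 above, the spots of the other arrays for both genes, apart from some spots of occlusion 1.

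Genes around the members were taken from 5 lists, each gene read by its brightest kept probe, and none of them passed the test. Among calmodulin and its binding proteins 6 of 8 were higher, with a median of 0.13 (0.051 without occlusion 3 and 0.26 without occlusion 4), but Calm2, Calm3 and Gap43 were saturated on all 8 arrays and Pcp4 on 7. Camta2, a calmodulin-binding transcription activator, gave 0.28 (SE 0.11), against -0.19 (SE 0.18) for the small GTPase Rrad and -0.06 (SE 0.21) for the scaffold striatin, Strn. Among other genes of the CaM kinase pathway 10 of 15 were higher, with a median of 0.18, where all probes had a median of 0.04 and 56.6% were higher. The gene at that median, Camk2n1, was saturated on all 8 arrays and Camkv on 3, and the median of the genes never saturated was 0.10.

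Of those 15, Camkk2, the kinase that phosphorylates CaMKI and CaMKIV, read -2.17, -2.14, -2.48 and -2.40 on occlusion arrays, against -2.63, -2.69, -2.96 and -2.90 on control arrays. Its groups did not overlap, and the difference was 0.50 (SE 0.13, adjusted p = 0.413 in limma). Camk1, the CaMKI alpha kinase, gave 0.60 (SE 0.20), Pnck, the CaMKI beta kinase, -0.12 (SE 0.14). Eef2k, the calmodulin-dependent kinase that slows translation elongation, read 0.73, 0.57, 0.79 and 0.32 on occlusion arrays, against 0.99, 1.02, 0.94 and 0.98 on control arrays. All occlusion arrays lay below the controls, which were almost level (SD 0.03), and the difference was -0.38 (SE 0.13, adjusted p = 0.413).

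In the calcineurin pathway 10 of 16 genes were higher, with a median of 0.08, and 0 of 16 had an unadjusted p under 0.05, where 10.8% of all probes had one. That median was -0.040 without occlusion 1 and -0.0032 without control 3. An unadjusted p under 0.05 in limma was found for 1 of 8 calmodulin genes and 3 of 15 CaM kinase genes. Homer partners had 3 of 19 and activity-induced genes 0 of 14. The groups did not overlap for 1 of 8 calmodulin genes, 1 higher and 1 lower of 15 CaM kinase genes and 1 of 19 Homer partners. They did so for 0 calcineurin and 0 activity-induced genes, where 6.38% of all probes had no overlap. The regulators of calcineurin Rcan3 and Rcan1 gave 0.43 (SE 0.20) and -0.18 (SE 0.14), the phosphatase inhibitor Ppp1r1a, saturated on 7 arrays, 0.26 (SE 0.18), and Akap5, which anchors calcineurin at synapses, -1.33 (SE 0.65). Akap5 read 1.77 on control 3, against -2.02 to -0.76 on occlusion arrays and -1.49 to -0.52 on the other controls, and its difference was -0.66 without control 3. Among Homer partners 12 of 19 were higher, with a median of 0.10, which was 0.27 without control 3 and 0.017 without control 2. The scaffold Shank3 read 4.33, 3.62, 3.53 and 3.94 on occlusion arrays, against 3.00, 2.18, 2.73 and 3.54 on control arrays, overlapping by 1 pair of arrays, with a difference of 0.99 (SE 0.30, adjusted p = 0.413). The postsynaptic scaffold Dlg4 gave 0.40 (SE 0.13) without overlap of the groups, the ryanodine receptor Ryr2 -0.59 (SE 0.35), and the channel Trpc4 -0.80 (SE 0.69), or 0.0046 without control 3.

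Activity-induced genes, listed because Homer 1a is one of them, showed no common direction: 6 of 14 were higher and 8 lower, with a median of -0.02, which was 0.32 within slide 1 and -0.34 within slide 2. Dusp1, a MAP kinase phosphatase, gave 0.59 (SE 0.33) and Nptx2, a secreted pentraxin, 0.80 (SE 0.67), against -1.11 (SE 0.73) for the dendritic gene Arc and -0.62 (SE 0.49) for the transcription factor Egr1. Arc read 3.03 on control 3, against -0.88 to -0.39 on occlusion arrays and -0.66 to 0.14 on the other controls. Without control 3 the differences were -0.27 for Arc, -0.28 for Egr1, 0.14 for Nptx2 and 0.83 for Dusp1. Control 3 was the highest array for the Homer 1a probe, Arc and Egr1 and the lowest for Nptx2, while for Dusp1 it was neither. It was also the highest array for the other Homer1 probe and for 17.6% of all probes with 8 values.

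**Figure D5:**
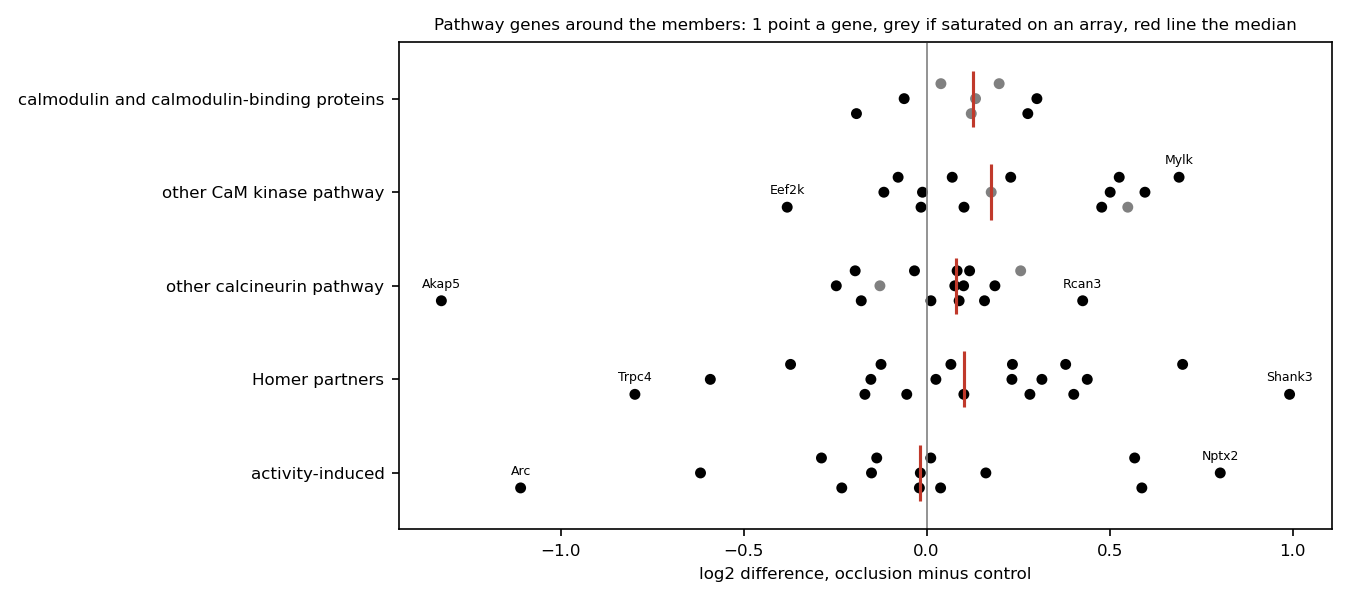
Log2 difference, occlusion minus control (x axis), of each measured gene in 5 lists of the calmodulin, CaM kinase, calcineurin, Homer and activity-induced groups (y axis), with grey points for genes saturated on at least 1 array, a red line at each list's median and the outermost genes of 4 lists labelled. The list medians run from -0.02 to 0.18, the top one being 0.10 over genes never saturated, and single genes from -1.33 (Akap5) to 0.99 (Shank3).

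Cell type markers differed between the arrays too. For comparison, 56.6% of all probes were higher and 43.4% lower on occlusion arrays, and 10.8% had an unadjusted p under 0.05 in limma. Such a p was found for 7 of 14 relay, 3 of 9 GABA and 4 of 14 oligodendrocyte genes. Choroid plexus and ependymal markers had 7 of 11, striatal 2 of 12, pyramidal 1 of 9 and astrocyte markers 1 of 12. Microglial and hypothalamic markers had 0 of 12, endothelial and habenular markers 0 of 11. Of the markers of thalamic relay neurons, 14 of 14 measured genes were higher on occlusion arrays, and their mean per array ran from 0.45 to 1.03 on occlusion and from -0.63 to 0.49 on control arrays. Of the markers of the reticular nucleus and of GABA neurons, 7 of 9 were lower, with means per array of -3.18 to -0.0038 on occlusion and -1.72 to 1.15 on control arrays, while Dlx2, Esrrg and Lhx6 were too dim to be kept. Control 3 had the highest mean of the GABA list (1.15), and control 2 the lowest of the relay list (-0.63). Hippocampal and cortical pyramidal markers ran from -3.12 to -2.62 on occlusion and from -3.27 to -2.29 on control arrays, 6 of 9 higher, with Emx1 and Fezf2 among those not kept. Oligodendrocyte markers were lower for 12 of 14 genes (means per array 1.26 to 1.97 on occlusion and 1.65 to 2.45 on control arrays). Choroid plexus and ependymal markers were lower for 10 of 11 (-1.06 to -0.75 and -1.28 to -0.15). The exception, the choroid plexus marker Ttr, was higher by 1.85 (SE 0.69, adjusted p = 0.418 in limma) without overlap of the groups. Astrocyte, microglial, endothelial, striatal, habenular and hypothalamic markers had medians between -0.11 and 0.28. The mean of the habenular markers ran from -1.86 to 0.64 on occlusion and from -2.65 to 1.24 on control arrays, highest on control 2 and lowest on control 3. That of the hypothalamic markers ran from -2.78 to 0.66 on occlusion and from -2.73 to 0.030 on control arrays. Means per array covered only genes with a value on all 8 arrays. Among the marker lists whose means are given here, this left out genes from 3. Their means held 11 of 14 oligodendrocyte, 8 of 9 pyramidal and 11 of 12 hypothalamic genes. The part of any of these marker lists in the differences of the 10 genes was not tested.

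Genes with the most similar profiles were found over the 8 arrays among 11254 named, never saturated genes, as a description only, since the top of so many correlations has no meaningful p. For Camk2a (A_44_P101625) the first was Rasd2, a small GTPase (Pearson r = 0.986, Spearman rho = 0.929). Next came Chn1, a GTPase-activating protein for Rac (r = 0.977, rho = 0.976), and Anxa5, a calcium-dependent phospholipid binder (r = 0.974, rho = 0.976). Without control 2 and control 3, the arrays farthest from the median, these r were 0.948, 0.923 and 0.939. For Nrgn they were Rsph10b (r = 0.992, rho = 1), Tmeff2 (r = 0.978, rho = 1) and Tekt1, a filament protein of cilia (r = 0.972, rho = 0.976), and without control 3 and occlusion 1 r was 0.980, 0.952 and 0.946. For Homer1 (A_44_P148865) they were Wasf1, an actin regulator (r = 0.974), Cnksr2 (r = 0.972) and Ctdnep1 (r = 0.968), with rho of 0.976, 0.929 and 0.833. Without control 2 and control 3 r was 0.956, 0.908 and 0.934.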

How the data were processed

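Each of the 8 rats gave 1 µg of total RNA for 1 Agilent array, in the Cy3 channel alone per the file headers. Per the file headers, the authors' Agilent Feature Extraction 9.5.1.1 wrote a linear processed intensity for every spot, background-subtracted, detrended and with a surrogate for dim spots, together with 0 or 1 flags. A series-wide table, also deposited, repeats this intensity with gaps of at most 0.497%. Probe positions are on rn3 per the file headers. The number of arrays, not a read depth, limits the precision.

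Groups, replicate numbers and slides came from the labels. Control spots and outlier-flagged spots were left out, log2 intensity was taken, the 75th percentile of each array subtracted and spots of a probe averaged. The filter asked for the background flag to be passed on 4 or more of the 8 arrays, whatever the group, and for 2 or more values a group. Of 27161 kept probes 1100 lacked a value on some array, none of them a probe of the 10 genes. Groups were compared with limma 3.58.1 (R 4.3.3), using lmFit and eBayes. P-values are two-sided and were adjusted by Benjamini-Hochberg across the 27161 probes, with a threshold of 0.05. The script was tested on simulated data. Arrays were taken as separate animals, because the series describes 4 animals in either group.

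List genes were named through the RefSeq gene table of assembly GRCr8, which named 10735 probes by accession, 5577 by symbol and 3729 by synonym. All probes of the 10 genes are described, and of each pathway list the 2 genes at each end when ordered by limma's moderated statistic. For likeness, the 3 genes with the highest r to the brightest probe of Camk2a, Nrgn and Homer1 are named. Gap43, Pcp4, Calm2 and Calm3 were singled out for their saturation after their values were seen. Some genes that these rules name are not reported here. The genes and lists were chosen with earlier results of these data known. Alternatives were 2 other scalings, normexp (offset 50), 2 other filters, a slide block, the slides taken singly, a replicate block, the deposited table, outlier spots kept and each array left out.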

Additional observations from a re-analysis of the deposited data

Results flagged for a closer look

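In 5 of 70 groups of 4 arrays, a single array lay far from the other 3 by Dixon's criterion, the gap to its neighbour taking up most of the group's range, which chance gives in about 1 of 20 groups. For Camk2b (A_44_P452145) occlusion 2 read 1.82, against 1.75 to 1.76 on the other occlusion arrays, a group whose whole spread is small. For Camk2d (A_44_P441695) control 3 read -4.16, against -3.68 to -3.61 on the other controls. For Ppp3ca (A_44_P372439) control 3 read 4.998, against 4.04 to 4.13. For Nptx2 occlusion 3 read 1.56, against 2.86 to 3.12 on the other occlusion arrays. For Trpc4 control 3 read 2.93, against -0.40 to -0.17 on the other controls. Control 3 accounts for 3 of these 5.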

How the results depend on the processing

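Under all 19 alternatives limma called 0 probes and 0 probes of the 10 genes at an adjusted p under 0.05, also when each array was left out (0 to 0), while 2000 (without control 2) to 3853 (slide as a block) probes had an unadjusted p under 0.05. The smallest adjusted p of all probes in limma varied, from 0.067 with normexp and 0.098 without control 2 to 0.655 without occlusion 1. Of 285 differences of the member probes under the alternatives 276 kept their sign. Camk2d A_44_P441695 was -0.070 in slide 1 alone and ran from -0.0525 (without control 3) to 0.15 when an array was left out. Ppp3ca A_44_P221588 was 0.33 in slide 1 alone, 0.0026 with normexp and -0.18 to 0.16 with an array left out. Homer1 A_44_P148865 ran from -0.042 (without control 2) to 0.36, and Homer3 was 0.026 in slide 1 alone. Of 379 differences of pathway genes 373 kept their sign. Of 95 medians of the 5 pathway lists 9 moved by more than the spread (SD) of the list mean between arrays, in the calmodulin, calcineurin and activity-induced lists. In slide 1 alone Arc was 0.11, Nptx2 -0.074 and Trpc4 0.067. With an array left out Trpc4 ran from -1.11 to 0.0046 and Strn from -0.19 to 0.090. The cause was not tested. With the replicate number as a replicate block 0 probes were called and 2798 had an unadjusted p under 0.05. For same-numbered arrays the r of deviations from group means was 0.355, 0.514, -0.0713 and -0.293 for numbers 1 to 4. Arrays numbered 1, and those numbered 2, shared a slide between the groups, while those numbered 3 and 4 did not. These r therefore cannot tell pairing from slide, and whether the numbers pair animals stays undecided. The main fit did not take them as pairs. All 15 kept probes were well above background on 8 of 8 arrays, and normexp moved the dim ones Homer 1a, Homer3, 1 of Camk2d and 1 of Ppp3ca by over 1.5 times.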
